A study of Rattus norvegicus with 19 samples.

Results

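The proteasome is the protease that degrades ubiquitin-tagged proteins in the cytosol and nucleus. Its barrel-shaped core is built from alpha subunits (Psma genes), which form the outer rings and gate the entrance, and beta subunits (Psmb genes), of which Psmb5, Psmb6 and Psmb7 carry the constitutive protease sites. A regulatory cap recognises, unfolds and feeds in substrates, with a ring of ATPases (Psmc genes) and a set of non-ATPase subunits (Psmd genes). Interferon signalling exchanges the constitutive protease subunits for the immune subunits Psmb8, Psmb9 and Psmb10 and raises the activator Psme1/Psme2, which alters the peptides that are produced for antigen presentation. In liver the proteasome works beside autophagy in the turnover of cell protein.

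Genes whose names begin with Psma, Psmb, Psmc, Psmd, Psme, Psmf or Psmg, in the array files or under the current symbol, were taken as the proteasome set. They had 55 of the 41012 non-control probes and 47 gene names. Of these names 45 had a probe kept for testing, all well above background on 19 of 19 arrays, and none saturated. Psmc3ip and Psme3ip1 have names that begin alike but are not subunits, activators or assembly chaperones, and were set apart. This left 43 genes. They were 7 core alpha, 7 core beta, 5 immune, 6 cap ATPase and 10 cap non-ATPase genes. The others were 3 cap chaperones, 3 core chaperones and the further activators Psme3 and Psme4. Psma8, the testis form of an alpha subunit, was above background on 2 arrays and Psmb11, the thymus form of a beta subunit, on 0, and neither was tested. Psmd14, Psmf1 and Psmg4 were matched to no probe.

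Livers came from 19 single-housed wild-type Wistar males, aged 8 weeks when their diets began and fed them over 4 months. Control rats (n = 7) took 70% of their energy from carbohydrate, 20% from protein and 10% from fat. The high protein group, HP (n = 6), took 45% from protein, mostly casein, 45% from carbohydrate and 10% from fat, and the high fat group, HF (n = 6), 60% from fat and 20% each from protein and carbohydrate. All rats were killed in the fed state, each liver is a separate animal, and 1000 ng of RNA from each liver was labelled with Cy5 and hybridised with a Cy3-labelled pool of liver RNA, without dye swaps. A level is therefore the log2 ratio of a liver to the pool, and a difference is the log2 difference between group means with the standard error (SE) of the linear model. Levels are not compared between genes, because probes differ in response. HP over Control and HF over Control share the Control livers, and HP over HF shares its livers with both. In bulk tissue, fewer cells of a type and less RNA per cell cannot be told apart.

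Of the spots, between 54.2% and 67.5% were well above background in Cy5. All 8 hepatocyte markers were measured. By limma (adjusted p under 0.05), 1 was higher in HP over Control and 1 was higher in HF over Control. In HP over HF 3 were higher and 1 lower. Of all features 0.414%, 3.63% and 7.01% passed in these comparisons. Taken per liver, the median level of the 8 markers ran from -0.08 to 0.17 in Control, 0.14 to 0.39 in HP and 0.11 to 0.26 in HF. Taken per gene, their median difference was 0.11 in HP over Control, -0.01 in HF over Control and 0.04 in HP over HF. The 2 summaries thus differ for HF over Control. The part of hepatocyte content in the levels below was not tested. The library Control 6 stood apart: its 8 measured lymphocyte markers had a median level of 2.56, against -0.95 to -0.58 in the other 18 livers, and its log ratios had an SD of 0.44 against 0.20 to 0.29. Arrays came from 5 slides, each scanned separately, so that slide and scan are the same batch. HP and Control shared slides 1, 4 and 5, HF and Control shared slides 1, 2 and 3, and HP and HF shared slide 1 only. Slides 1, 3 and 5 held 1 Control liver each, namely Control 1, Control 3 and Control 6. The only HF liver on slide 1 was HF 1.

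Few proteasome genes differed between diets. By limma with Benjamini-Hochberg adjustment over 22240 features, 0 of 43 passed (adjusted p under 0.05) in HP over Control, where 0.414% of all features passed. Of all features 0.274% were higher and 0.139% lower. At an unadjusted p under 0.05 there were 7 proteasome genes, all higher in HP, where 14.3% of all features reached that level. In HF over Control 1 of 43 passed, against 3.63% of all features (1.83% higher, 1.79% lower), namely Psmc3, which was higher; at an unadjusted p under 0.05 there were 4, against 15.8% of all features. In HP over HF 2 of 43 passed, against 7.01% of all features (3.62% higher, 3.39% lower), namely Psmd9 and Psmd13, both higher in HP; at an unadjusted p under 0.05 there were 6, against 20.0% of all features. A test for any difference over the diets called 1 of 43, Psmd9, against 6.57% of all features, and 9 of 43 had an unadjusted p under 0.05, against 21.7%. All of these shares but that of the 7 genes in HP over Control lie below the background. In HF over Control the groups overlapped for all 43 genes, where 1.97% of all features had groups that did not. The median log2 difference of the 43 genes was 0.05 in HP over Control, 0.02 in HF over Control and 0.03 in HP over HF, beside -0.01, -0.01 and -0.00 for all features. In these comparisons 28, 28 and 26 of the 43 differences were above 0, against 46.3%, 46.8% and 48.8% of all features. Of the 43 differences, 37, 40 and 37 were smaller than 0.2 in size in these comparisons. Within slides the median of the 43 genes was 0.08, 0.05 and 0.13 in HP over Control (slides 1, 4 and 5). It was 0.19, 0.03 and -0.11 in HF over Control (slides 1, 2 and 3) and -0.14 in HP over HF (slide 1). The sign thus varied by slide for HF over Control and turned for HP over HF. On slide 1 HP over HF set HP 1 and HP 4 against HF 1 alone. By median of the 43 genes HF 1 was highest of the HF livers (0.08) and HP 4 lowest of the HP livers (-0.07). RefSeq names 48 further loci as copies of 17 of the members, and RNA of such copies could reach the same probes.

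**Figure D1:**
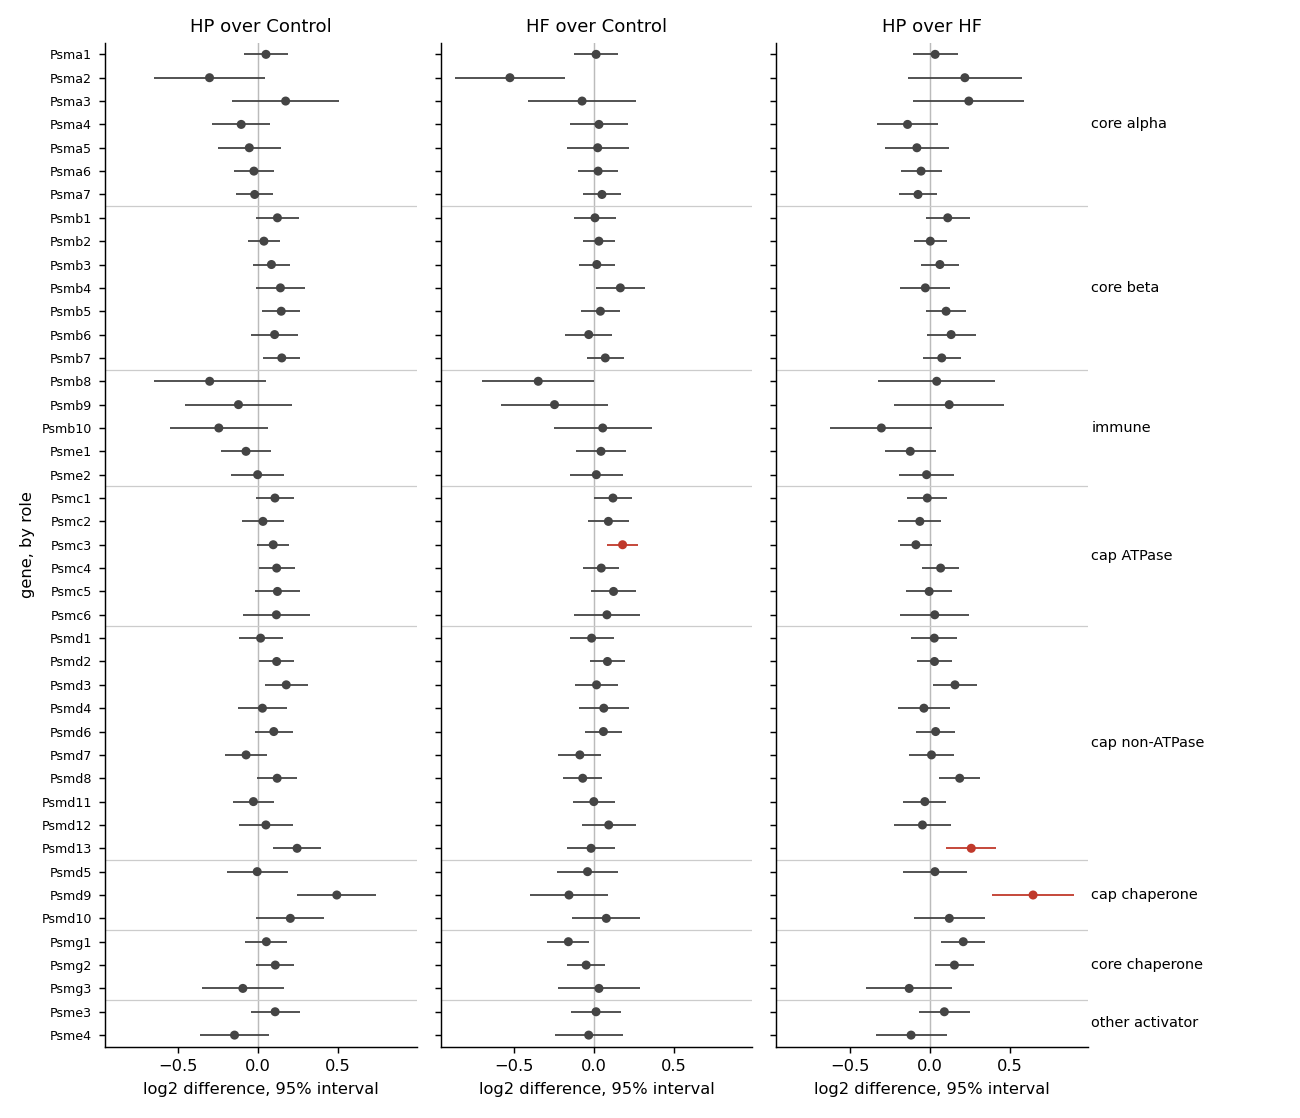
Log2 differences of 43 proteasome genes (points) with 95% intervals (lines) on the horizontal axis, by role down the vertical axis, for HP over Control, HF over Control and HP over HF; red marks an adjusted p under 0.05. Most points lie close to 0, and the 3 red points are Psmc3 in HF over Control and Psmd9 and Psmd13 in HP over HF.

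The upstream sequences of the genes whose probes passed, and of Psmb10 for the immune subunits, are shown so that motifs linked to proteasome regulation can be seen in place. They are RefSeq sequences of build GRCr8, written 5′ to 3′ on the strand of the gene, within 250 bases before its start and outside any annotated gene, so that several are shorter. Psmd9 is at chr12:39018341-39018514, minus strand. Psmd13 is at chr1:205394146-205394247, plus strand, and fills the 102 bases between Sirt3 and Psmd13. Psmc3 is at chr3:97487393-97487642, plus strand. Psmd2 is at chr11:93763389-93763459, minus strand, and Psmb10 is at chr19:50743293-50743542, minus strand. Capitals mark a match to a searched motif on either strand.
Psmd9: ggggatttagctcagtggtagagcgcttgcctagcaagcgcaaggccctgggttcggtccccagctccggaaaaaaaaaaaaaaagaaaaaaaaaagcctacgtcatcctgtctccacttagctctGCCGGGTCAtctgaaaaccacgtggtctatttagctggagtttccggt
Psmd13: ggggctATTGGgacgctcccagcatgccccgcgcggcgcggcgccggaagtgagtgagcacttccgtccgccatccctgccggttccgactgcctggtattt
Psmc3: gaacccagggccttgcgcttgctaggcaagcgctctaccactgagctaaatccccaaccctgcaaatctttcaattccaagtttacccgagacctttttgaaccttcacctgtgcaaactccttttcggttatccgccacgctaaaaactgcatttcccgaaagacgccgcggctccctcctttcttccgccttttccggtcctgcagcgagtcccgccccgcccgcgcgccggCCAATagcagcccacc
Psmd2: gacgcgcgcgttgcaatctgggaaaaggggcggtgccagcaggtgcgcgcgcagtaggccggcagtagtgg
Psmb10: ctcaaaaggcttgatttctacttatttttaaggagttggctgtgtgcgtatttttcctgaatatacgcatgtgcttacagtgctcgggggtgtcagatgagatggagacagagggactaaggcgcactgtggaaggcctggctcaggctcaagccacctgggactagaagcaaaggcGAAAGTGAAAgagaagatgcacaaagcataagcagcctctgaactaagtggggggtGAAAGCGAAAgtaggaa

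Motifs were searched on both strands of the 250 bases before the start, for 40 of the 43 genes that RefSeq's table matched and for all 33469 promoters in it. The antioxidant response element, TGACNNNGC, was present in 7 of 40 and in 10.1% of all promoters. It is in capitals for Psmd9. There the printed stretch ends 77 bases before the start used, since the annotated Psmd9 gene itself covers the rest of the window. A further match, from 77 bases before that start, runs into the annotated gene. A CCAAT box, from 42 bases before it, lies within the gene. Neither is marked in the printed stretch. The interferon-stimulated response element, searched as a pair of GAAA runs with any 2 bases between them, was present in 5 of 40 and in 3.41% of all promoters; among the 5 immune subunits it was found in Psmb10 and Psme2, and Psmb10 had 2 matches. The gamma-activated site, TTCNNNGAA, was present in 4 of 40 (7.67% of all) and the CCAAT box, CCAAT, in 19 of 40 (34.0% of all). A match says only that the letters are present.

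In the core, none of the 14 genes passed in any comparison with all livers. Of the 7 alpha subunits, 5 had a difference below 0 and 2 above it in HP over Control, with a median of -0.03. That count rested on HP 4: without it, 2 were below 0 and 5 above, with a median of 0.01. Psma2 had the largest difference below 0 of all 43 genes, in HF over Control. Its levels in Control livers ranged from -0.13 to 0.55 with a median of 0.02, in HP livers from -0.56 to 0.07 with a median of 0.01, and in HF livers from -0.66 to 0.27 with a median of -0.57. Control livers 1 and 4 were highest, and HF 2, 3 and 6 were lowest, and the groups overlapped. The HF over Control difference was -0.53 ± 0.17 (SE; adjusted p = 0.0920), and HP over Control was -0.30 ± 0.17 (adjusted p = 0.419). Without HF 1 the gene passed in HF over Control (-0.65, adjusted p = 0.0196), and in the other 18 omissions it did not. Within the shared slides HF over Control was -0.24, -0.90 and -0.63 on slides 1, 2 and 3.

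All 7 beta subunits had a difference above 0 in HP over Control, between 0.04 and 0.15, and none passed. Of all features 46.3% were above 0 there. All 7 beta subunits were above 0 with any liver left out, and 7, 6 and 5 of them on slides 1, 4 and 5. On slides 1, 2 and 3, HF over Control was above 0 for 7, 6 and 2 of the 7. Among the constitutive protease subunits, Psmb7, which cleaves after basic residues, had levels from -0.29 to -0.08 in Control, from -0.16 to 0.02 in HP and from -0.28 to 0.01 in HF. Its HP over Control difference was 0.15 ± 0.05 (adjusted p = 0.223). Psmb5, which cleaves after hydrophobic residues, gave 0.14 ± 0.06 (adjusted p = 0.259), and Psmb6, which cleaves after acidic residues, 0.10 ± 0.07 (adjusted p = 0.531). The groups of all 3 genes overlapped. In HF over Control these genes gave 0.07, 0.04 and -0.03, and in HP over HF 0.08, 0.10 and 0.13, with the lowest adjusted p at 0.325. Psmb4, a non-catalytic beta subunit, was among the members with the smallest p in HF over Control, at 0.17 ± 0.07 (adjusted p = 0.264).

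**Figure D2:**
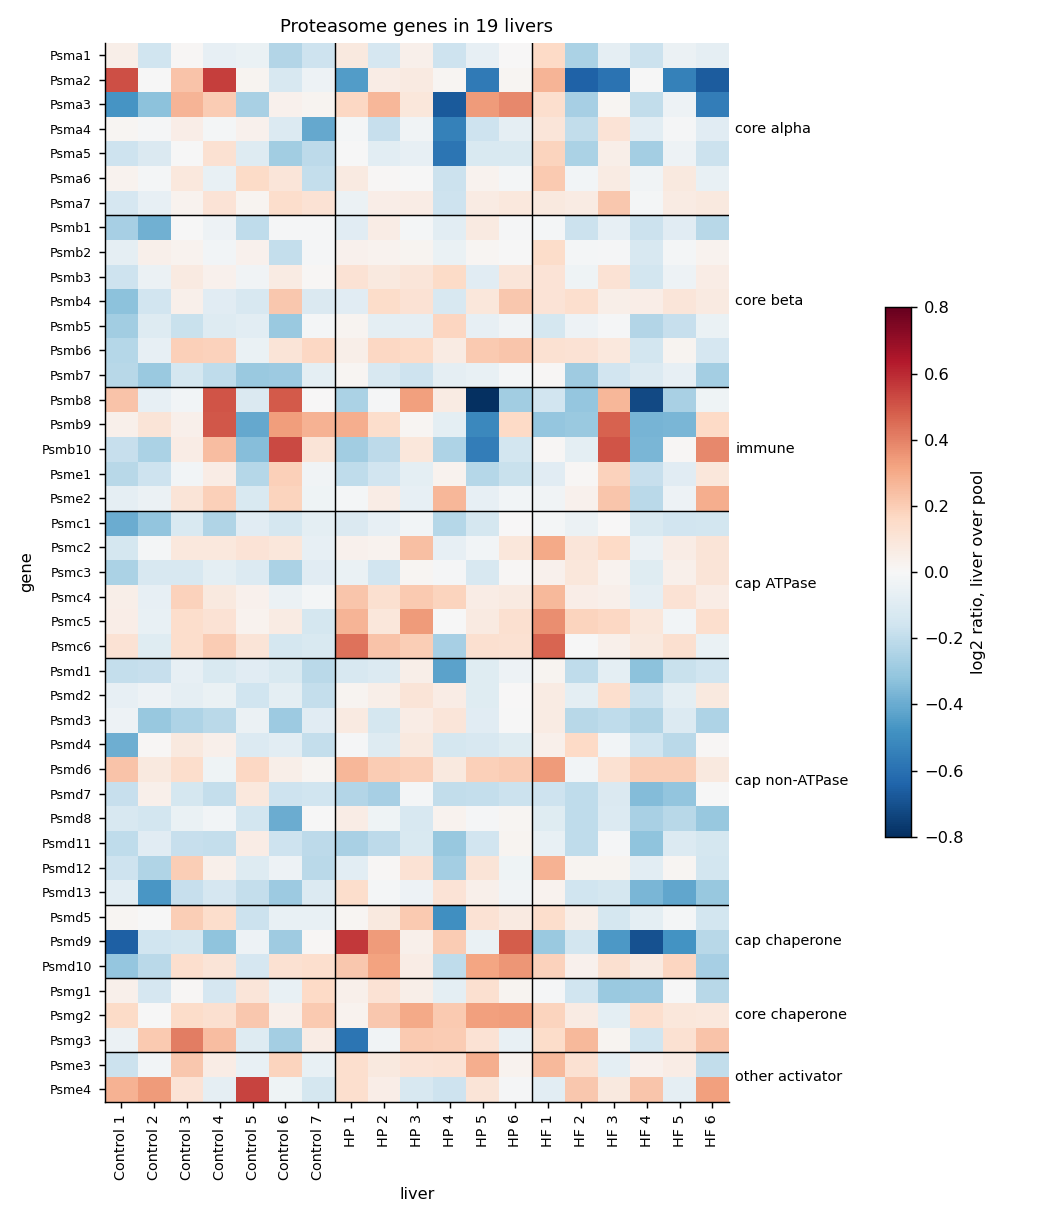
Level of 43 proteasome genes (vertical axis, by role) in each of 19 livers (horizontal axis, by diet), coloured by log2 ratio of the liver to the pool from -0.8 (blue) to 0.8 (red). Psma2, Psma3, Psmd9 and the immune subunits Psmb8, Psmb9 and Psmb10 vary most across livers, and HP 4 is low in the core alpha genes Psma3, Psma4 and Psma5.

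In the cap, all 6 ATPases had a difference above 0 both in HP over Control and in HF over Control, with medians of 0.11 and 0.10, beside -0.01 for all features. Within slides the counts above 0 were 5, 3 and 6 of 6 in HP over Control (slides 1, 4 and 5) and 6, 5 and 1 of 6 in HF over Control (slides 1, 2 and 3), so that on slide 3, with 3 HF livers and 1 Control liver, 5 of 6 were below 0. Without HP 3, 5 of 6 were above 0 in HP over Control. The second probe of Psmc6 gave -0.00 in HF over Control, against 0.08 for the brighter. Psmc3 was the one that passed. Its level in Control livers ranged from -0.25 to -0.08 with a median of -0.13, in HP livers from -0.15 to 0.01 with a median of -0.03, and in HF livers from -0.10 to 0.10 with a median of 0.04. All HF livers but HF 4 lay above every Control liver. The HF over Control difference was 0.18 ± 0.05 (adjusted p = 0.0368), and HP over Control was 0.09 ± 0.05 (adjusted p = 0.378). The direction held on slides 1, 2 and 3, at 0.29, 0.16 and 0.14. The call was lost when any of 9 livers was left out, Control 1, 2, 3 and 6 and HF 1, 2, 3, 5 and 6 (range over all 19 omissions 0.16 to 0.21, highest adjusted p = 0.0910), and when slides entered as fixed blocks (0.17, adjusted p = 0.221). It was lost too with normexp on every spot, the processed signals, the deposited matrix and the replicate block. The probe is at chr3:75417518-75417723 of rn4, the build of the array files, for which no exon map was used here.

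Among the 10 non-ATPase cap subunits, 1 passed, in HP over HF. Psmd13, a subunit of the lid of the cap, had levels from -0.47 to -0.08 in Control with a median of -0.19, from -0.04 to 0.14 in HP with a median of 0.01, and from -0.41 to 0.03 in HF with a median of -0.23. Every HP liver was above every Control liver, which 0.778% of all features showed in either direction, and HF 1 alone overlapped the HP livers. The HP over HF difference was 0.26 ± 0.08 (adjusted p = 0.0400), and HP over Control was 0.24 ± 0.07 (adjusted p = 0.134). HP over Control was 0.21, 0.16 and 0.26 on slides 1, 4 and 5, and HP over HF was 0.10 on slide 1. The call was lost when any of HP 1, 2, 4, 5 and 6 or HF 2, 4, 5 and 6 was left out (range 0.22 to 0.31, highest adjusted p = 0.0987), and when slides entered as fixed blocks (0.15, adjusted p = 0.463). It was lost too with normexp on every spot, the deposited matrix, Cy5 alone and no filter on dim probes. The lid subunits Psmd3 and Psmd8 did not pass. Psmd3 gave 0.18 ± 0.06 in HP over Control (adjusted p = 0.213) and Psmd8 gave 0.19 ± 0.06 in HP over HF (adjusted p = 0.0697).

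Psmd2, a scaffold subunit at the base of the cap, had 2 probes that gave different values. The brighter probe, which represented the gene, is at chr11:82478213-82478272 of rn4. It had levels from -0.19 to -0.04 in Control, from -0.10 to 0.10 in HP and from -0.17 to 0.14 in HF, which overlapped. Its HP over Control difference was 0.12 ± 0.05 (adjusted p = 0.320). The dimmer probe is at chr11:82479805-82481090, a span of 1286 bases. Its levels ran from -0.51 to -0.25 in Control with a median of -0.38, from -0.12 to 0.06 in HP with a median of -0.06, and from -0.49 to -0.20 in HF with a median of -0.36. All 6 HP livers were above all 13 other livers. The share of all probes that separate in this way was not counted. Of the 22240 features, 0.778% had groups that did not overlap in HP over Control and 4.99% in HP over HF. In a fit of 25292 probes, where 0.447% passed in HP over Control and 7.08% in HP over HF, the dimmer probe gave 0.33 ± 0.05 in HP over Control (adjusted p = 0.0116) and 0.31 ± 0.06 in HP over HF (adjusted p = 0.00203), and 0.02 ± 0.05 in HF over Control (adjusted p = 0.895), where 3.46% of probes and 1 of the 51 proteasome probes, that of Psmc3, passed.

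The dimmer Psmd2 probe was singled out after its values were seen. In that fit it was the 1 of 51 proteasome probes that passed in HP over Control, and 1 of the 3 that passed in HP over HF. It gave 0.23, 0.22 and 0.36 in HP over Control on slides 1, 4 and 5, and 0.18 in HP over HF on slide 1. It stayed past the threshold in both comparisons with any of the 19 livers left out. From Cy5 alone it was 0.20 in HP over Control (adjusted p = 0.280) and 0.13 in HP over HF (adjusted p = 0.425), and when slides entered as fixed blocks HP over HF was 0.18 (adjusted p = 0.171). The mean of both probes gave 0.22 ± 0.05 in HP over Control (adjusted p = 0.0342) and 0.17 ± 0.05 in HP over HF (adjusted p = 0.0355). The difference between the probes was not tested. Of the 7 genes with several kept probes, Psmd2 alone had a probe that passed; the 3 probes of Psmd7, a lid subunit, ranged from -0.08 to 0.07 in HP over Control.

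**Figure D3:**
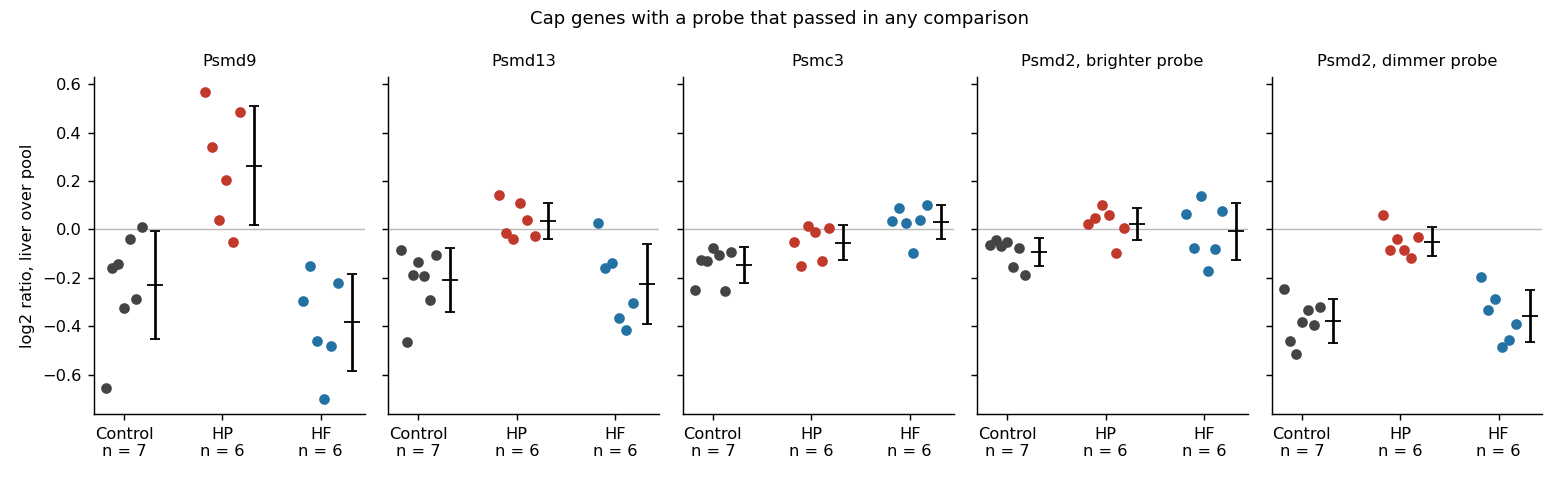
Level of Psmd9, Psmd13, Psmc3 and both Psmd2 probes, as log2 ratio to the pool (vertical axis), in each liver of the Control (n = 7), HP (n = 6) and HF (n = 6) groups; bars show mean and SD. HP livers lie above all HF livers for Psmd9 and above all other livers for the dimmer Psmd2 probe, while the brighter Psmd2 probe overlaps between groups.

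The largest difference in the set was that of the probe named Psmd9, a chaperone that helps to assemble the ATPase ring. Its levels ran from -0.65 to 0.01 in Control with a median of -0.16, from -0.05 to 0.57 in HP with a median of 0.27, and from -0.70 to -0.15 in HF with a median of -0.38. Every HP liver was above every HF liver, as 4.99% of all features showed in either direction, while HP 5 alone lay within the range of the Control livers. The HP over HF difference was 0.65 ± 0.12 (adjusted p = 0.00263), a 1.57-fold difference. HP over Control was 0.49 ± 0.12 (adjusted p = 0.0770) and HF over Control was -0.16 ± 0.12 (adjusted p = 0.577). The HP over HF call held with any of the 19 livers left out, with a highest adjusted p of 0.00802. HP over Control passed in 1 of these omissions, that of Control 7 (adjusted p = 0.0325). When slides entered as fixed blocks the value was 0.62 (adjusted p = 0.141), and on slide 1, the only shared slide, it was 0.68. HP over Control was 1.04, 0.16 and 0.55 on slides 1, 4 and 5.

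The strand of the Psmd9 probe limits what its values stand for. The probe is at chr12:34500658-34500717 of rn4, and the order of its coordinates puts it on the plus strand, whereas RefSeq places Psmd9 on the minus strand. Of 8507 probes named by accession, 96.6% had the strand of their gene, and so had 46 of 48 proteasome probes, the exceptions being Psmd9 and Psmd10. Within 500000 bases of the Psmd9 probe, 14 of 14 probes of other genes had the strand of their gene. Whether the signal came from Psmd9 messenger RNA or from RNA of the opposite strand cannot be told apart with these files. Psmd10, a chaperone of the cap also known as gankyrin, gave 0.20 ± 0.10 in HP over Control (adjusted p = 0.383), and 4 of 4 probes of other genes near its probe had the strand of their gene. Psmd5, the third cap chaperone, gave -0.01 ± 0.09.

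The nearest coding gene at lower coordinates, Cfap251, lies 145 bases from Psmd9 and was not measured. At higher coordinates the nearest is Hpd, the dioxygenase of tyrosine breakdown, on the plus strand and 23905 bases from Psmd9. Its probe is at chr12:34556165-34556224 of rn4, 55447 bases from the Psmd9 probe and on the same strand as it. Hpd was looked at after the Psmd9 values were seen. Its levels ran from -0.75 to -0.14 in Control with a median of -0.49, from 0.01 to 0.68 in HP with a median of 0.28, and from -0.45 to 0.21 in HF with a median of 0.04. Every HP liver was above every Control liver, as 0.778% of all features showed in either direction. Hpd gave 0.77 ± 0.12 in HP over Control (adjusted p = 0.0125), 0.45 ± 0.12 in HF over Control (adjusted p = 0.0519) and 0.32 ± 0.13 in HP over HF (adjusted p = 0.156). The HP over Control call held with any liver left out and was lost from Cy5 alone and when slides entered as fixed blocks, and HF over Control passed in 5 of the 19 omissions. By group median both genes were highest in HP, but Psmd9 was lowest in HF and Hpd in Control. HF over Control passed for neither gene, nor did HP over Control for Psmd9 or HP over HF for Hpd. Sirt3, a mitochondrial deacetylase that shares the 102 bases upstream of Psmd13, gave -0.16 ± 0.10 in HP over Control (adjusted p = 0.463). In HP over HF it gave -0.25 ± 0.10 (adjusted p = 0.156), from -0.25 to -0.02 over the 11 processing and block alternatives. Both signs are opposite to those of Psmd13. Cox8b, 287 bases away on the other side of Psmd13, gave 0.03 ± 0.05 and 0.05 ± 0.05 in these comparisons (adjusted p = 0.773 and 0.705).

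**Figure D4:**
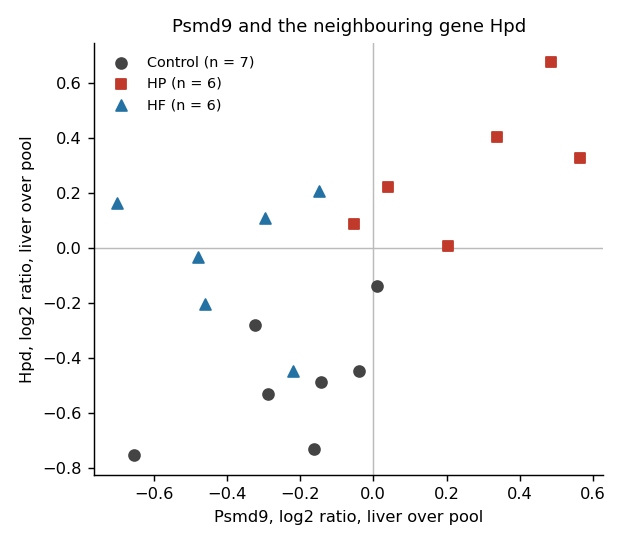
Level of Hpd (vertical axis) against level of the probe named Psmd9 (horizontal axis), both as log2 ratio to the pool, 1 point for each of the Control (n = 7), HP (n = 6) and HF (n = 6) livers. HP livers lie above all HF livers in Psmd9 and above all Control livers in Hpd, while HF livers overlap Control livers in both.

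Across livers within a diet, 6 pairings of a proteasome gene with a neighbour were computed (Pearson's r and Spearman's rho, exact permutation tests, p adjusted over the 6). Psmd9 with Hpd gave r = 0.57 and rho = 0.61 in Control (adjusted p = 0.329 and 0.300), r = 0.68 and rho = 0.66 in HP (0.329 and 0.300), and r = -0.19 and rho = 0.03 in HF (0.739 and 1.0). Without the 2 livers farthest from the median of Psmd9, r was -0.33, 0.77 and -0.38. No relation of Psmd9 with Hpd within a diet passed. Psmb9 with Tap1, the peptide transporter gene 408 bases away, gave r = 0.90 and rho = 0.94 in HF (adjusted exact permutation p = 0.0333 and 0.100), with r = 0.84 without the 2 farthest livers. The same pair gave r = 0.41 in Control and 0.66 in HP (adjusted exact permutation p = 0.447 and 0.442), with rho = 0.57 and 0.03, and r = 0.67 and -0.40 without the 2 farthest livers. All 6 HF livers came from slides 1, 2 and 3, and the relation could not be computed within a slide, since none held over 3 HF livers.

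None of the 5 immune subunits differed between diets past the threshold, and Psmb8, Psmb9 and Psmb10 were among the 5 proteasome genes that varied most between livers. Psmb8 had levels from -0.12 to 0.50 in Control with a median of 0.01, from -0.80 to 0.33 in HP with a median of -0.13, and from -0.72 to 0.27 in HF with a median of -0.21. Psmb10 ran from -0.34 to 0.53 in Control, from -0.56 to 0.09 in HP and from -0.36 to 0.50 in HF, and Psmb9 from -0.41 to 0.49, from -0.51 to 0.29 and from -0.37 to 0.47. HP 5 was lowest of the HP livers in all 3 genes, HF 4 was lowest of the HF livers and HF 3 highest of them in these genes. All groups overlapped.

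Of the 5 immune subunits, all had a difference below 0 in HP over Control, from -0.30 for Psmb8 to -0.00 for Psme2, with a median of -0.12. Within slides, 2, 4 and 5 of the 5 were below 0 on slides 1, 4 and 5. The only Control liver on slide 5 was Control 6, whose immune subunits had the highest median level of the Control livers (0.34). When any of Control 3, 4 and 6 or HP 1, 3, 5 and 6 was left out, 4 of 5 were below 0. Psmb8 gave -0.30 ± 0.17 (adjusted p = 0.429), Psmb10 -0.25 ± 0.15 (adjusted p = 0.463), Psmb9 -0.12 ± 0.16 (adjusted p = 0.753) and Psme1 -0.08 ± 0.07 (adjusted p = 0.669). In HF over Control 2 of 5 were below 0, with Psmb8 at -0.35 ± 0.17 (adjusted p = 0.323), Psmb9 at -0.25 ± 0.16 (adjusted p = 0.501), and Psmb10, Psme1 and Psme2 at 0.06, 0.04 and 0.02. In HP over HF the 5 genes lay between -0.30 for Psmb10 (adjusted p = 0.284) and 0.12 for Psmb9 (adjusted p = 0.776). The 95% intervals of Psmb8 ran from -0.66 to 0.05 in HP over Control and from -0.70 to 0.00 in HF over Control, so differences of that size were not excluded by this number of livers.

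Control 6, the liver with high lymphocyte markers, also had the highest Control level of Psmb10 (0.53) and a Psmb8 level of 0.49, next to 0.50 in Control 4. Without it, HP over Control was -0.25 for Psmb8, -0.16 for Psmb10, -0.09 for Psmb9, -0.03 for Psme1 and 0.02 for Psme2. Without HP 5, the lowest HP liver, these were -0.17 for Psmb8, -0.18 for Psmb10 and -0.02 for Psmb9. None of the 5 passed in either omission. Of the 20 lymphocyte markers listed, 8 were measured, and the part of other cells in these levels was not tested. No marker of macrophages (9 measured), neutrophils (2), endothelial cells (6), stellate cells (6), cholangiocytes (3) or lymphocytes passed in any comparison.

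**Figure D5:**
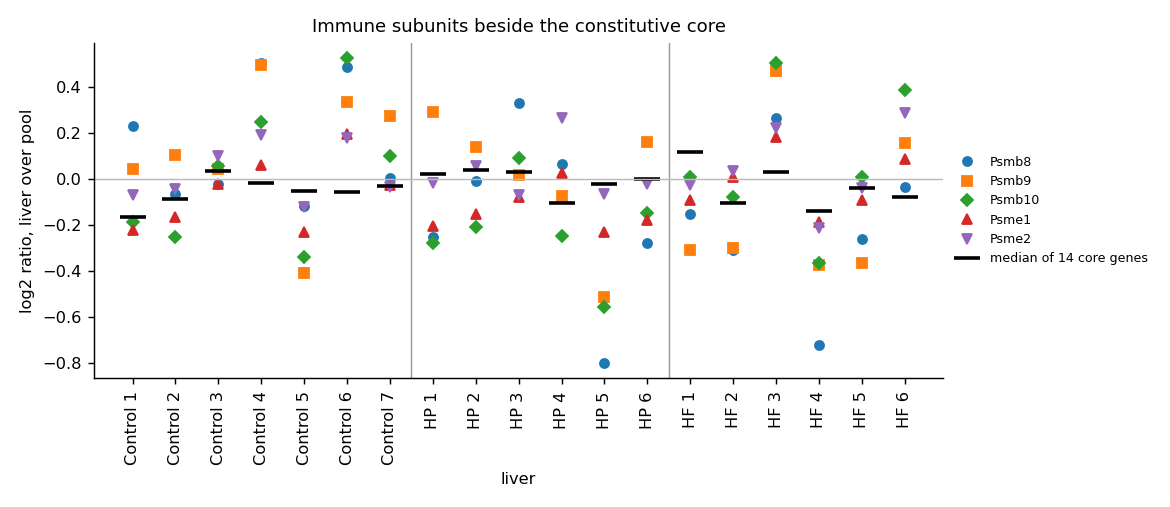
Level of the 5 immune subunits (markers) in each liver (horizontal axis, by diet), as log2 ratio to the pool (vertical axis), with the median of the 14 constitutive core genes as a bar. The immune subunits are high in Control 6 and HF 3 and low in HP 5 and HF 4, while the core median lies between -0.17 and 0.12.

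The residual SD of a gene within diets gives this spread. Its median was 0.12 over the 43 genes and 0.14 over all features. Psmb8 (0.33), Psma2 (0.32), Psma3 (0.31), Psmb9 (0.31) and Psmb10 (0.28) were the most variable, Psme1 (0.13) and Psme2 (0.15) lay near the median of all features, and Psmc3 and Psmb2 (both 0.07) the least. After diet means were removed, the 10 pairs of immune subunits had a median Pearson r across the 19 livers of 0.72, from 0.62 to 0.87, and of 0.70 without Control 6. The median was 0.22 for the 91 pairs within the core, 0.29 for the 120 pairs within the cap, 0.28 for the 224 pairs between core and cap, and 0.08 for the 70 pairs of an immune with a core subunit. All pairs share the same arrays, and pairs of all features had a median of -0.00. These correlations are given as a description only.

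The remaining members were close to 0 or did not pass. Psmg1, which chaperones the assembly of the alpha ring, gave 0.21 ± 0.07 in HP over HF (adjusted p = 0.0571) and -0.16 ± 0.06 in HF over Control (adjusted p = 0.202). HP over HF passed when Control 6, Control 7, HP 4, HF 1 or HF 5 was left out (lowest adjusted p = 0.0310) and with normexp on every spot, scaling between arrays and the replicate block, and was 0.09 when slides entered as fixed blocks. HF over Control was -0.03 from Cy5 alone. Its levels ran from -0.14 to 0.16 in Control, from -0.08 to 0.13 in HP and from -0.29 to -0.00 in HF, with overlap. The activators Psme3 and Psme4 gave 0.11 ± 0.07 and -0.15 ± 0.10 in HP over Control (adjusted p = 0.535 and 0.531). The genes set apart, Psmc3ip and Psme3ip1, gave differences between -0.01 and 0.10 in the 3 comparisons, and neither passed.

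Of the 36 partners of the proteasome and of ubiquitin in a list, 32 were measured and 0 passed in any of the 3 comparisons, where 0.414%, 3.63% and 7.01% of all features passed, with medians of -0.02, -0.03 and -0.00. In HP over HF the smallest p was that of Ddi2, a protease that activates the transcription factor of proteasome genes, at -0.32 ± 0.10 (adjusted p = 0.0623). In HF over Control it was that of Adrm1, a ubiquitin receptor of the cap, at 0.14 ± 0.05 (adjusted p = 0.161), and in HP over Control that of Ube3a, a ubiquitin ligase, at -0.16 ± 0.07 (adjusted p = 0.304). Next in order of p were Ube2d3 (-0.12) and Adrm1 (0.09) in HP over Control, Ube2d2 (-0.14) and the core assembly factor Pomp (0.16) in HF over Control, and Ube3a (-0.17) and Ube2d3 (-0.11) in HP over HF, where the Ube2d genes encode ubiquitin-conjugating enzymes. Of 16 genes of antigen presentation and interferon response, 14 were measured, with medians of -0.16 in HP over Control, -0.18 in HF over Control and -0.01 in HP over HF. All features had medians of -0.01, -0.01 and -0.00. Taken per liver, the median level of the 14 genes had a group median of -0.02 in Control, -0.04 in HP and -0.11 in HF. HP 5 was the lowest liver, at -0.40. Of the 14 genes 1 passed, in HF over Control, against 3.63% of all features: Tapbp, which loads peptides onto class I molecules. Its levels ran from -0.12 to 0.31 in Control, from -0.21 to 0.06 in HP and from -0.32 to -0.05 in HF, and it was lower in HF than in Control with a difference of -0.26 ± 0.07 (adjusted p = 0.0324). That call was lost in 9 of the 19 omissions, of Control 1, 2, 5 and 7 and HF 1, 2, 4, 5 and 6 (range -0.29 to -0.21, highest adjusted p = 0.0864), and in 6 of 11 other alternatives. In HP over Control the smallest p were those of B2m, the class I light chain, at -0.35 ± 0.13 (adjusted p = 0.199), the peptide transporter Tap2 at -0.30 ± 0.12 (adjusted p = 0.267) and the peptide-trimming Erap1 at -0.15 ± 0.07 (adjusted p = 0.350). Irf1, an interferon-responsive transcription factor, gave -0.28 ± 0.11 in HF over Control (adjusted p = 0.191) and 0.31 ± 0.11 in HP over HF (adjusted p = 0.110). The ubiquitin-like Ubd gave -1.64 ± 0.80 and 1.61 ± 0.83 in these comparisons (adjusted p = 0.335 and 0.298), and -0.88 and 0.86 without HF 3, and Tap2 gave -0.31 ± 0.13 in HP over HF (adjusted p = 0.160). The median level of the antigen genes was 0.28 in Control 6, the highest of the 19 livers, and without it B2m was -0.24 in HP over Control.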

How the data were processed

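The members, lists and tests were chosen with earlier results of these data known. The authors deposited scanner files with signal and background intensity, made with Agilent Feature Extraction 10.5.1.1 per the submitters' processing notes. The authors also deposited a matrix of log2 values for 22764 features, whose processing is not given in the sources used here; it served as an alternative. Signals were corrected by normexp (offset 50, after 40 spots under a bright local background were dropped), and log ratios were normalised by loess within arrays. Spots of a probe were averaged, a probe was kept if 6 or more of the 19 arrays had its Cy5 signal well above background, and a gene is its kept probe of highest mean signal. limma 3.58.1 (R 4.3.3) fitted the 3 diets in 1 model with 16 residual degrees of freedom, two-sided, and adjusted p over 22240 features (10909 with a gene name). No member value was missing. Named genes were those that passed, the 4 of smallest p and the 3 of largest difference in each comparison, the immune and constitutive protease subunits, and for other lists those that passed and the 3 of smallest p. Like replicate numbers were not treated as pairs. The fit was checked on simulated data. RefSeq GRCr8 supplied names, strands, neighbours and promoters, with no coordinates of it set against rn4 positions.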

Additional observations from a re-analysis of the deposited data

Results flagged for a closer look

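Psmd8, a subunit of the lid of the cap, had 1 liver far from the others of its diet. Control 6 had a level of -0.40, whereas the other 6 Control livers lay between -0.15 and -0.01. The gap was 0.641 of the range of the 7 livers. It was the 1 case among 60 sets of livers examined, and chance gives about 1 in 20 such sets. Without Control 6, Psmd8 gave 0.19 in HP over HF with an adjusted p of 0.0176 by limma, against 0.0697 with it. Control 6 is in neither of these groups, so the difference stayed the same. Only the spread shared by the model and the adjustment over features changed.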

How the results depend on the processing

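Counts of passing genes were small and changed with the processing. The shares of all features that passed in the same settings are not set beside these counts. The counts therefore describe stability only and are not read against a background. HP over HF gave 1 with the deposited matrix, Cy5 alone and no filter on dim probes, 4 with scaling between arrays, and 0 with slide as a fixed block; with normexp on every spot it stayed at 2, with Psmg1 in place of Psmd13. HF over Control gave 0 with normexp on every spot, processed signals, the deposited matrix and slide as a fixed block. HP over Control gave 1, Psmd2, with the mean of a gene's probes. The test over all diets gave 2 with processed signals, Cy5 alone, scaling between arrays, probes above background on all arrays and the mean of probes, and 0 with slide as a fixed block. The cause of each change was not tested. The replicate block gave 2 for all diets and 0 for HF over Control; like-numbered livers had a mean correlation of -0.01, so the numbers were taken as no pairing. Leaving out 1 liver gave 1 to 3 for all diets, 0 to 1 for HP over Control and for HF over Control, and 1 to 4 for HP over HF, where Control 6 gave 4. Control livers are in neither group of HP over HF, so leaving 1 out changes only the shared spread and the adjustment there. The median difference ran from 0.05 to 0.09, from 0.00 to 0.05 and from -0.00 to 0.06 in these omissions, and was 0.15 in HP over Control with the deposited matrix. No passing gene changed sign; 12 of 396 and, with a liver left out, 19 of 684 differences of named genes changed sign while not passing. The dimmer Psmd2 probe, the class counts and the genes outside the proteasome were examined under alternatives chosen after seeing the data. The number of arrays limits the precision.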
